A study of Homo sapiens with 6 samples.

Results

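Antisense-named long noncoding RNA genes are the genes whose symbol is that of another gene followed by -AS and a digit. The name says that the gene lies beside or across the named sense gene on the opposite strand. Antisense transcripts may start at the promoter of the sense gene and run away from it, start within it, or reach it from beyond its 3′ end. They are mostly spliced and polyadenylated like messenger RNAs without coding for a known protein, and some are known to act on the expression of the gene across from them, while others act elsewhere, carry small RNAs in their introns and exons, or have no known role.

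The set held 55 genes, chosen by symbol alone, of the 15917 genes listed in the deposited table, which is 0.346%. Of these, 50 had a symbol ending in -AS1 and 5 one ending in -AS2. The symbol does not fix the gene type: GENCODE release 44 annotates *TP73-AS1* as a transcribed unitary pseudogene and has no entry for *FRMD6-AS1*. The sense gene was listed for 45 of the 55, which gave 44 different sense genes because *GAS6* had 2 antisense genes. The symbols CDR1-AS, BACE1-AS and CTBP1-AS, which lack a digit, were outside the rule, and a rule with any suffix gave 58 genes.

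The table came from total RNA-seq of MDA-MB-231, an established triple-negative breast cancer cell line with a mesenchymal-like state, in a study of *RBMS3*, which encodes an RNA binding protein. The 6 libraries comprised 3 groups of 2 biological replicates, namely cells with a control short hairpin RNA (shCTRL), cells with the *RBMS3* hairpin B3 and cells with the *RBMS3* hairpin C3, so that all groups carried a hairpin and no untreated cells were included. All cells were grown in DMEM with serum, and libraries were made from 5 ng of RNA with a stranded kit after depletion of ribosomal cDNA. The value used here was the authors' mean normalized count of each gene, a single number that pools the libraries of their knockdown comparison. Because it is a pooled mean, no value per library, no SD and no difference between shCTRL and knockdown cells is given for any gene, and all values below describe the pooled cultures. The depth of the libraries is unknown, and which of the 6 entered the mean is not given in the sources used here. The comparison is described as knockdown cells against control cells with 2 biological replicates of each, which leaves unsaid from which hairpin the knockdown libraries came.

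The line was checked by its markers. The mean normalized count was 69335 for *VIM*, which encodes the intermediate filament of mesenchymal cells, 35387 for the receptor kinase gene *AXL* and 10047 for the hyaluronan receptor gene *CD44*, and *MSN*, *CAV1* and *ANXA1* lay between 4340 and 13493. The hormone receptor genes *ESR1* and *PGR* and the luminal factor gene *FOXA1* were not listed. *CDH1*, which encodes E-cadherin, had a mean of 31.6, close to the lowest listed value of 26.7, *EPCAM* 107 and *GATA3* 171, while the keratin genes *KRT8* and *KRT18* were at 17802 and 12689. *RBMS3* itself had a pooled mean of 272, and its level by group was not analysed here. No antisense gene of *RBMS3*, *RBMS1*, *RBMS2* or *TXNIP* was listed.

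Sequences are shown first for the small nucleolar RNAs (snoRNAs) within the set, since those are the parts of these hosts with a known product. *LRRC75A-AS1* (chr17:16438767-16480249 of GRCh38, plus strand, GENCODE release 44), the gene of the set with the highest mean, has SNORD49A, SNORD49B and SNORD65 within its merged exons, 3 box C/D snoRNAs of the class that guides 2′-O-methylation of ribosomal RNA. They lie at chr17:16440036-16440106, chr17:16439505-16439576 and chr17:16441226-16441298, all on the plus strand, and none of them was listed in the table. *EPB41L4A-AS1* (chr5:112160526-112164818, plus strand) holds SNORA13 at chr5:112161485-112161617 on the plus strand, a box H/ACA snoRNA of the class that guides pseudouridylation. Capitals mark the C box (TGATGA) and the D box (CTGA) in the SNORD sequences and the ACA element in SNORA13.
SNORD49A: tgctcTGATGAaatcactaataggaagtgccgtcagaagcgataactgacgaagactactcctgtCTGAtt
SNORD49B: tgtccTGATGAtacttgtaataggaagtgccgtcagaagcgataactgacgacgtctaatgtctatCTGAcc
SNORD65: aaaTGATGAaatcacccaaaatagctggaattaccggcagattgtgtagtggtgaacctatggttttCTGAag
SNORA13: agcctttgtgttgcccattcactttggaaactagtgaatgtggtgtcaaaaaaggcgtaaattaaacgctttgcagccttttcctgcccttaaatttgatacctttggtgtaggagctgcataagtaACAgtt
SNORD49A and SNORD49B, of 71 and 72 bases, shared an unbroken stretch of 35 bases between their boxes, and the D box ended 2 bases before the 3′ end in each of the 3 SNORD sequences. The ACA of SNORA13 was followed by 3 bases.

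Promoters are shown for 3 genes with many, fewer and almost no CpG dinucleotides. *BAIAP2-AS1* starts head to head with *BAIAP2*, which encodes an adaptor protein of the actin cytoskeleton. *LRRC75A-AS1* has the highest level, and *SLFNL1-AS1* has the lowest CpG ratio. Each sequence is the RefSeq promoter window of GRCh38.p14, from 250 bases before to 50 bases after the start, and capitals mark every CpG. The windows are chr17:81034670-81034969 on the minus strand, chr17:16438737-16439036 on the plus strand and chr1:41014340-41014639 on the plus strand.
BAIAP2-AS1: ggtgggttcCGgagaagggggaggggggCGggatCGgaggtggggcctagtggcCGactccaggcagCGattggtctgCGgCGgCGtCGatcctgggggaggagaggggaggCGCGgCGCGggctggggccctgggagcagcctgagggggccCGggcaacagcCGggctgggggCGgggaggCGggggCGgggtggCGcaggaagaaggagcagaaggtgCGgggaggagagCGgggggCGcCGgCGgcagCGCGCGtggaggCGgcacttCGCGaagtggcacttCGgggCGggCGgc
LRRC75A-AS1: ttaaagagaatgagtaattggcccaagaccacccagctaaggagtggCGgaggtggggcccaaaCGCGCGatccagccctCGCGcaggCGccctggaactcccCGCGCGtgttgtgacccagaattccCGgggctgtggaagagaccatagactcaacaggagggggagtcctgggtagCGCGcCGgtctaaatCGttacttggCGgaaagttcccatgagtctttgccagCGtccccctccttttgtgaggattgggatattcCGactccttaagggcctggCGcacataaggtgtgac
SLFNL1-AS1: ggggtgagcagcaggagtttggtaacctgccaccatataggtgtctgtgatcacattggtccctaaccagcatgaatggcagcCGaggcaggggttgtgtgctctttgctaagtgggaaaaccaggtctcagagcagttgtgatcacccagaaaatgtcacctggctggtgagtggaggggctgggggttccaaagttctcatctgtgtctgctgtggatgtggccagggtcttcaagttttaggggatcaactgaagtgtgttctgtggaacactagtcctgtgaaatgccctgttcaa
The windows held 33, 19 and 1 CpG, which is an observed to expected CpG ratio of 0.904, 0.739 and 0.0521.

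Antisense-named genes were low among the listed genes but not the lowest of the classes, which were formed by symbol or by GENCODE gene type. Their median mean normalized count was 80.7, with quartiles of 41.0 and 199, against a median of 364 for all listed genes, 526 for the 12407 protein-coding genes, 115 for the 28 genes with a LINC symbol and 56.3 for the 1264 other long noncoding RNA genes. Only 6 of the 55 (10.9%) lay above the table's median. Since long genes collect more reads, levels were also divided by the length in kb of the merged exons, which was possible for the 54 genes with a model in GENCODE. The median level per kb was 17.8 in the antisense-named genes, 17.05 in the LINC genes, 20.9 in the other long noncoding RNA genes and 94.0 in the protein-coding genes. On this scale the 3 noncoding classes lay within a narrow range, and the protein-coding median was several-fold higher. Genes of very low level are not in the table at all, so these medians hold for the listed genes and not for the annotated classes. The classes also follow the symbols listed. By GENCODE names, 246 more listed genes are antisense-named and 198 listed genes are LINC genes, many under another symbol. Those of them that are annotated as long noncoding RNA fell in the classes set beside the antisense-named genes. The noncoding classes therefore do not separate kinds of gene.

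Within the set, the reads were concentrated in a few genes. The mean was at least 1000 in 3 genes, 100 to 1000 in 21, 50 to 100 in 14 and under 50 in 17. *LRRC75A-AS1* had a mean of 4174, at percentile 95.1 of the table, and alone gave 30.9% of the summed mean of the set. GENCODE names this gene SNHG29, a snoRNA host gene. *AFAP1-AS1* (chr4:7754077-7778928, plus strand), which lies across the gene of an actin filament binding protein and has been studied for its high level in several cancers, followed at 1397. *OIP5-AS1* (chr15:41283958-41322392, plus strand), a transcript also known as cyrano, was at 1143, and *GABPB1-AS1* (chr15:50354944-50372202, plus strand) at 791. These 4 genes together held 55.6% of the summed mean of the set, and the whole set held 0.0613% of the summed mean of the table.

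**Figure D1:**
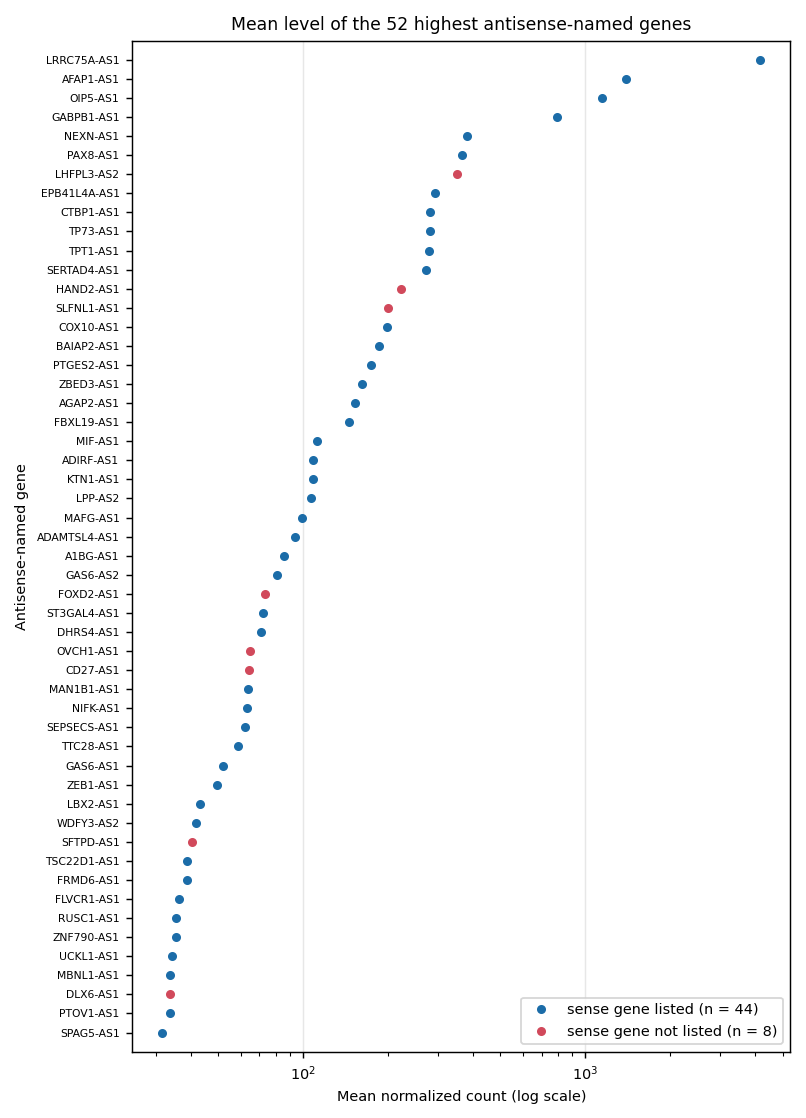
Mean normalized count (log scale) of the 52 antisense-named genes with the highest mean, 1 point per gene, coloured by whether the sense gene was listed; each point is the authors' pooled mean, so there is no error bar. *LRRC75A-AS1* at 4174 stands above *AFAP1-AS1* at 1397, and the lowest gene shown is *SPAG5-AS1* at 31.6.

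The next 6 genes by mean were spread over a narrow range. *NEXN-AS1*, across from the gene of a muscle actin binding protein, had a mean of 381, and *PAX8-AS1*, across from the gene of a transcription factor of thyroid and kidney development, one of 365. *LHFPL3-AS2*, whose sense gene was not listed, was at 351, *EPB41L4A-AS1* at 293, *CTBP1-AS1*, beside the gene of a transcriptional corepressor, at 282 and *TP73-AS1*, at the 3′ end of the gene of the p53 family member p73, at 281. The order depended on length, because the merged exons of the set ranged from 1093 bases in *SERTAD4-AS1* to 22370 bases in *OIP5-AS1*. Per kb of merged exons the highest levels were 466 in *LRRC75A-AS1*, 249 in *SERTAD4-AS1*, 166 in *NEXN-AS1* and 148 in *LHFPL3-AS2*, and the lowest was 1.83 in *DLX6-AS1*.

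For each of the 44 pairs with a model of both genes, the level of the antisense gene per kb was divided by that of its sense gene. The antisense gene was below its sense gene in 35 of 44 pairs (79.5%) and above it in 9. The median ratio was 0.176, with quartiles of 0.0448 and 0.671, and 15 ratios lay under 0.1. The listed sense genes were not rare transcripts: their median mean normalized count was 649, at percentile 64.2 of the table. In these pairs the median level per kb was 118 for the sense genes against 19.0 for the antisense genes. The class medians lay apart in the same direction, at 94.0 for all protein-coding genes and 17.8 for the set. Whether the gap within pairs differs from that between unpaired genes was not tested. The 10 sense genes that were not listed have no value and are left out. Levels of the antisense and the sense gene hardly varied together. Across the 44 pairs, Spearman's coefficient of the levels per kb was -0.106 and Pearson's r of their log2 values -0.0743, given as a description since genes are not replicates, since both *GAS6* pairs share a sense gene, and since all levels come from the same libraries.

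**Figure D2:**
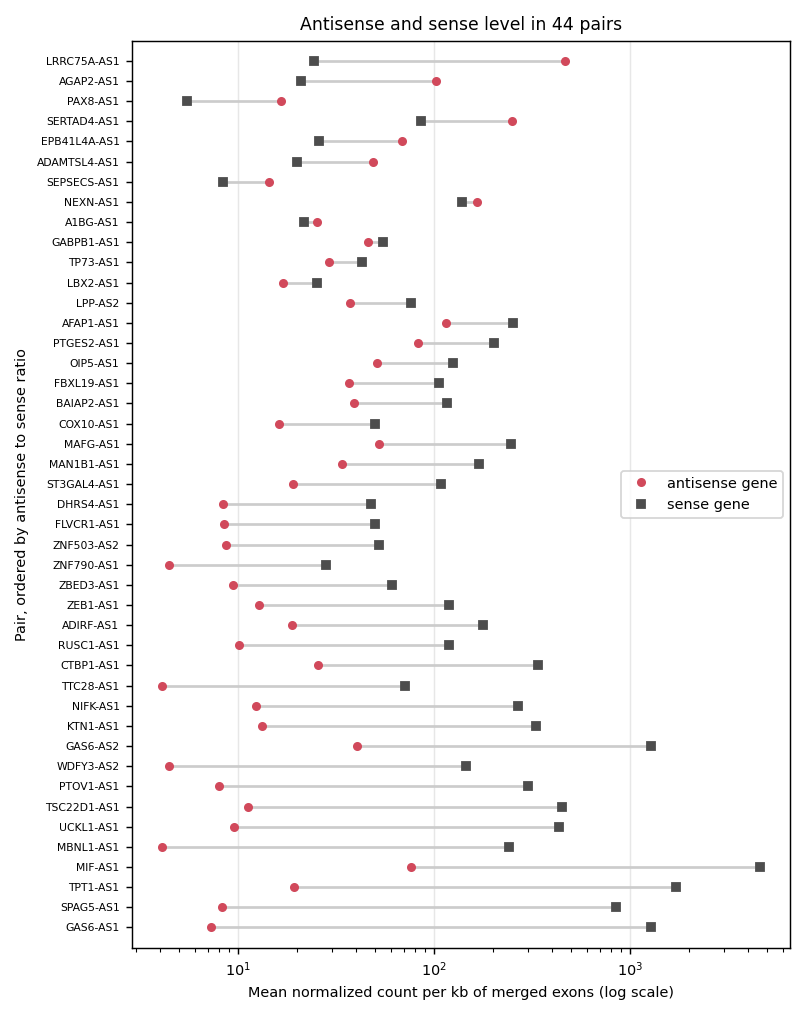
Level per kb of merged exons (log scale) of the antisense gene (circles) and its sense gene (squares) in 44 pairs, ordered by their ratio; each symbol is 1 pooled mean and the grey line joins a pair. The ratio runs from 0.00569 in *GAS6-AS1* to 19.0 in *LRRC75A-AS1*, and the highest sense level is that of *MIF* at 4613.

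In the 8 pairs with the lowest ratios the sense gene had a mean of at least 1384, well above the table's median. The choice itself favours this, since the pairs were picked by a low ratio and no listed gene had a mean under 26.7. *GAS6*, which encodes the ligand of the AXL receptor kinase, had a mean of 7696 and a level of 1279 per kb, and *GAS6-AS1* (chr13:113815630-113845744, plus strand) a mean of 52.2 and a ratio of 0.00569, so that *GAS6* was 176 times as high per kb. *SPAG5-AS1*, beside the gene of a mitotic spindle protein, had a mean of 31.6 against 4420 for *SPAG5* and a ratio of 0.00973. *TPT1-AS1* had a mean of 280 and was among the higher genes of the set, and its ratio was 0.0112, with a mean of 12336 for *TPT1*, which encodes the abundant translationally controlled tumor protein. Per kb of the representative transcript the ratio of *TPT1-AS1* was 0.111, and that of *GAS6-AS1* was 0.00237. *MIF-AS1* had a mean of 112 and a ratio of 0.0164 to the cytokine gene *MIF*, and *MBNL1-AS1* a mean of 33.9 and a ratio of 0.0171 to the splicing regulator gene *MBNL1*. The ratios of *UCKL1-AS1*, *TSC22D1-AS1* and *PTOV1-AS1* were 0.0219, 0.0251 and 0.0267. All 8 stayed below 1 on every length scale that was tried.

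Of the pairs in which the antisense gene was higher, *LRRC75A-AS1* stood apart. Its level was 466 per kb against 24.5 for *LRRC75A*, a ratio of 19.0, the ratio of the undivided means was 45.6, and with the representative transcript, which has 443 bases, it was 334. *AGAP2-AS1* had a level of 102 per kb against 20.9 for the GTPase activating protein gene *AGAP2*, a ratio of 4.87, although the undivided means were alike at 153 and 151. *PAX8-AS1* had a ratio of 3.002 to *PAX8*, whose mean of 40.6 was the lowest of any listed sense gene. *EPB41L4A-AS1* had a ratio of 2.64 to *EPB41L4A*, which encodes a protein of the band 4.1 family. In these 4 pairs the antisense gene was the higher one on each of 3 scales, namely per kb of merged exons, per kb of a representative transcript and not divided by length. In 31 pairs it was the lower one on all 3 scales.

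In the other 9 pairs the direction depended on the scale. *OIP5-AS1* was below the centromere protein gene *OIP5* per kb of merged exons, with a ratio of 0.410, but above it by 7.63 in undivided means and by 2.84 per kb of the representative transcript. *OIP5-AS1* has 72 annotated transcripts, and its merged exons span 22370 bases against 3231 bases of the representative transcript. *GABPB1-AS1*, beside the gene of a subunit of the GA-binding protein, had ratios of 0.834, 2.54 and 0.722 on the 3 scales in the same order. *NEXN-AS1*, *SERTAD4-AS1*, *ADAMTSL4-AS1*, *SEPSECS-AS1* and *A1BG-AS1* were above 1 per kb of merged exons, at 1.21, 2.89, 2.45, 1.71 and 1.17, and below 1 in undivided means. *TP73-AS1* and *ZBED3-AS1* were below 1 at 0.675 and 0.155 and were above it only per kb of the representative transcript.

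**Figure D3:**
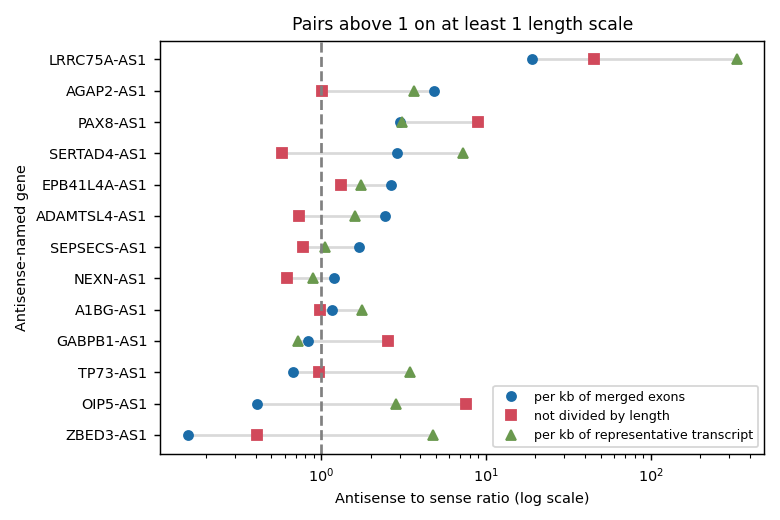
Antisense to sense ratio (log scale) of the 13 pairs in which the antisense gene was higher on at least 1 of 3 length scales; each symbol is 1 scale and the dashed line marks equal levels. Only the symbols of *LRRC75A-AS1*, *AGAP2-AS1*, *PAX8-AS1* and *EPB41L4A-AS1* all lie above 1, that of *AGAP2-AS1* in undivided means at 1.01.

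The position of the genes was read from GENCODE. Of the 54 genes with a model, 18 were head to head with the sense gene, with starts at most 1000 bases apart on opposite strands, 18 started further inside the sense gene, and 17 were convergent, with a start beyond the 3′ end of the sense gene and bodies that overlap. *FOXD2-AS1* did not overlap *FOXD2* and started 3403 bases from it. The median distance of the starts in the head-to-head pairs was 175 bases, from 5 bases in *COX10-AS1* to 941 bases in *PTOV1-AS1*, and 9 of the 18 overlapped the body of the sense gene. GENCODE gives 10 of the genes another name, 6 of them as divergent transcripts with the ending DT, and 5 of these 6 were head to head.

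The antisense gene was below its sense gene in 17 of 18 head-to-head pairs, in 9 of 14 pairs with the start inside the sense gene and in 9 of 12 convergent pairs. The median ratios were 0.206, 0.0952 and 0.293, and the ranges of the 3 arrangements overlapped. The head-to-head exception was *SEPSECS-AS1*, whose ratio of 1.71 fell to 0.780 in undivided means. The split depended on the start limit and on which annotated start was used. *NEXN-AS1* and *SERTAD4-AS1*, counted as starting inside the sense gene, had ratios of 1.21 and 2.89. Their starts lay 1026 and 1251 bases from the sense start, so a limit of 2000 bases made both head to head. That limit also moved *CTBP1-AS1*, *ZEB1-AS1*, *WDFY3-AS2* and *TSC22D1-AS1*, all with ratios below 1, to head to head. With the start of the representative transcript, *NEXN-AS1*, *CTBP1-AS1*, *KTN1-AS1*, *ZEB1-AS1*, *WDFY3-AS2* and *TSC22D1-AS1* were head to head. *LBX2-AS1* then moved from head to head to a start inside the sense gene, as *PAX8-AS1* did from convergent. Among the head-to-head genes, ratios between 0.1 and 1 prevailed, with *PTGES2-AS1* at 0.412, *FBXL19-AS1* at 0.347, *BAIAP2-AS1* at 0.336, *COX10-AS1* at 0.325, *MAFG-AS1* at 0.212, *MAN1B1-AS1* at 0.2002, *ST3GAL4-AS1* at 0.176 and *FLVCR1-AS1* at 0.169. *LPP-AS2* and *LBX2-AS1* were at 0.490 and 0.669, and *ZNF503-AS2* at 0.165. Some of these values depended on length. In undivided means *LPP-AS2* was at 0.0532, *MAFG-AS1* at 0.0768 and *MAN1B1-AS1* at 0.0345, while per kb of the representative transcript *PTGES2-AS1* was at 0.108, *BAIAP2-AS1* at 0.115, *MAN1B1-AS1* at 0.0498 and *COX10-AS1* at 0.869. The difference between arrangements was not tested, since each value is a pooled mean and genes are not replicates.

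**Figure D4:**
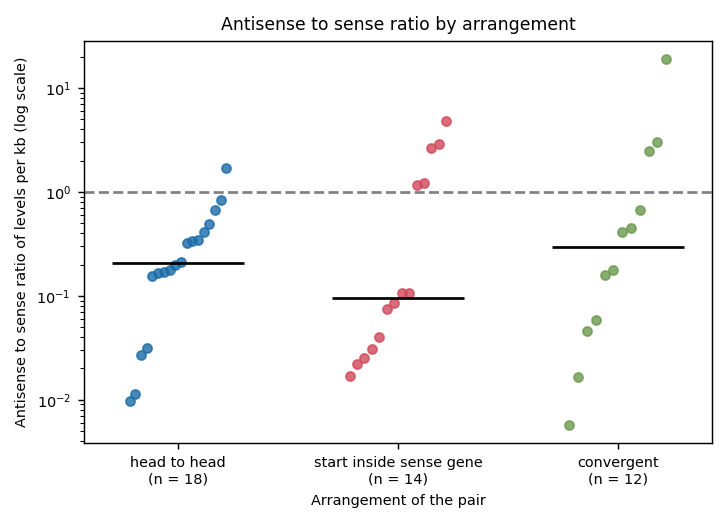
Antisense to sense ratio of levels per kb of merged exons (log scale) by the arrangement of the pair, 1 point per pair, with the median as a bar and equal levels as a dashed line. Medians are 0.206, 0.0952 and 0.293 from left to right, and 1 of the 18 head-to-head pairs lies above 1 against 5 of 14 and 3 of 12.

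*GAS6* gave both arrangements at 1 locus. *GAS6-AS1* was convergent, with its start 48446 bases from that of *GAS6*, and *GAS6-AS2* (chr13:113864112-113866834, plus strand), which GENCODE names GAS6-DT, started 36 bases from it. The head-to-head gene had a mean of 80.7 and a level of 40.2 per kb, and the convergent gene a mean of 52.2 and a level of 7.28 per kb. Both were far below *GAS6*, with ratios of 0.0314 and 0.00569.

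The remaining pairs filled the space between. Among the genes that start inside the sense gene, *ZEB1-AS1* had a mean of 49.6 and a ratio of 0.107 to *ZEB1*, which encodes a repressor of epithelial genes, and *CTBP1-AS1* had a ratio of 0.0755. For *ZEB1-AS1* the ratio was 0.0480 in undivided means and 0.746 per kb of the representative transcript. *ADIRF-AS1* was at 0.106, or 0.804 in undivided means, *RUSC1-AS1* at 0.0844, *KTN1-AS1* at 0.0403 and *WDFY3-AS2* at 0.0307. Among the convergent genes, *AFAP1-AS1* had a ratio of 0.452 to *AFAP1*, *DHRS4-AS1* one of 0.176, *ZNF790-AS1* one of 0.158, *TTC28-AS1* one of 0.0581 and *NIFK-AS1* one of 0.0463. In undivided means *DHRS4-AS1* was at 0.689 and *ZNF790-AS1* at 0.326. *FRMD6-AS1*, with a mean of 38.8 against 2921 for *FRMD6*, had no GENCODE model and so no level per kb.

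The sense gene was not listed for 10 genes. Their median mean was 64.7 against 93.6 in the 45 with a listed sense gene. *LHFPL3-AS2* at 351, *HAND2-AS1* at 222 and *SLFNL1-AS1* at 200 were the highest of the 10, followed by *FOXD2-AS1* at 73.0, *OVCH1-AS1* at 64.9, *CD27-AS1* at 64.4, *SFTPD-AS1* at 40.3, *DLX6-AS1* at 33.8 and *RFPL1-AS1* at 29.5. Several of the missing sense genes are markers of other tissues, such as *HAND2* of heart and sympathetic neurons, *DLX6* of craniofacial and forebrain development, *SFTPD* of lung and *CD27* of lymphocytes. A gene that is not listed had a level under the table's lower end or was left out for another reason, and the cause was not tested.

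Whether reads were counted by strand is not given in the sources used here, which bears on the genes that share exonic bases with their sense gene. That was the case for 41 of the 54 genes, at a median of 5.09% of the antisense exonic bases over all 54, and 13 shared none. The share was over 50% in *AGAP2-AS1* at 57.7% and *EPB41L4A-AS1* at 51.2%, and it was 46.5% in *MIF-AS1* and 42.2% in *AFAP1-AS1*. On the side of the sense gene, the shared part was 94.1% of the exonic bases of *MIF* and 89.3% of those of *ADIRF*. It was 63.2% for *OIP5* and 51.3% for *AFAP1*, and under 50% for the other listed sense genes with a model of both genes. If strand was not used, reads in these parts cannot be told apart between both genes. Exonic bases were also shared with a listed gene on the same strand, where strand does not help, in 7 genes, namely *OIP5-AS1*, *EPB41L4A-AS1*, *ZBED3-AS1*, *AGAP2-AS1*, *ADAMTSL4-AS1*, *SEPSECS-AS1* and *GAS6-AS1*. For *EPB41L4A-AS1* this gene was SNORA13, whose 133 bases all lie within the host's merged exons and which had a mean of 448 against 293 for the host. The merged exons of *EPB41L4A-AS1*, 4293 bases, cover its whole gene body, while its representative transcript has 3511 bases. Lying within them therefore does not place SNORA13 in an exon of that transcript. For *AGAP2-AS1* the shared stretch was 1378 of 1500 exonic bases. The levels of these 7 are uncertain, and 4 of them were among the 9 pairs with a ratio above 1. Small RNAs that were not listed are not counted here. These include the 3 snoRNAs within the merged exons of *LRRC75A-AS1*, on the same strand, whose share of its reads was not tested. The microRNA genes complete the small RNAs within the set, MIR4712 in *GABPB1-AS1* and MIR3199-2 in *TTC28-AS1*, neither of which was listed.

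The representative transcript had a median of 2.5 exons, against 3 in other long noncoding RNA genes, 4 in LINC genes and 9 in protein-coding genes, and 9 of the 54 genes had a single exon. The median G+C content was 51.6%, against 48.3%, 49.2% and 48.0% in these classes. The study named an AUA element, an A, G or T followed by an A or T, then ATA, an A or T, and an A, as the motif of RBMS3. On the transcript strand, 48 of 54 representative transcripts (88.9%) held at least 1 match, against 71.4% in LINC genes, 76.3% in other long noncoding RNA genes and 87.5% in protein-coding genes, whose transcripts are longer. The median was 1.44 matches per kb in the set, 0.980 in LINC genes, 1.20 in other long noncoding RNA genes and 1.24 in protein-coding genes. *TP73-AS1*, *TPT1-AS1*, *ZBED3-AS1*, *MIF-AS1*, *ZEB1-AS1* and *RUSC1-AS1* had none. The study's knockdown analysis looked for the element in 3′ untranslated regions, while whole transcripts, coding sequence included, were searched here. A match is a description of the sequence and not a binding site.

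*LPP-AS2* had the most matches per kb, 10.1, with 29 in a transcript of 2864 bases, and *OIP5-AS1* and *KTN1-AS1* followed at 5.57 and 5.49.

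RefSeq gave a promoter window for 40 of the 55 genes. The observed to expected CpG ratio had a median of 0.761, and it was at least 0.6 in 26 of 40 windows (65%), against 61.8% in other long noncoding RNA genes, 52% in LINC genes, 83.7% in protein-coding genes of the table and 49.0% of all 27305 RefSeq promoters. The set thus lay close to the other long noncoding RNA genes, a class that includes antisense genes listed under other symbols. Head-to-head genes had such a ratio in 12 of 14 windows, with a median of 0.823, and the other genes with an arrangement in 13 of 25. The arrangement was read from GENCODE and the window from RefSeq, and their starts differed by more than 1000 bases in 7 genes, namely *PAX8-AS1*, *HAND2-AS1*, *ADAMTSL4-AS1*, *DHRS4-AS1*, *ZEB1-AS1*, *RFPL1-AS1* and the head-to-head gene *MAFG-AS1*, whose RefSeq start lies 4930 bases from that of GENCODE. In the head-to-head gene *GABPB1-AS1* they differed by 770 bases. With the 32 genes whose starts lay closer, the counts were 11 of 13 head-to-head genes and 11 of 19 others. In 7 of 14 head-to-head pairs the windows of both genes overlapped, by up to 267 of 300 bases in *MAN1B1-AS1*. They also overlapped in 2 of 10 pairs with the start inside the sense gene and in 0 of 7 convergent pairs. The 2 were *KTN1-AS1*, with 214 shared bases, and *RUSC1-AS1*, with 170. Part of the sequence counted in the overlapping windows is therefore that of the sense promoter. *GAS6-AS2* had the highest ratio at 1.24 with 56 CpG. The motif TATAAA, searched on both strands, was found in 2 of the 40 windows (5%). The share was 10.4% in other long noncoding RNA genes, 12% in LINC genes, 5.52% in protein-coding genes of the table and 12.0% of all RefSeq promoters. The share of the set rests on only 2 windows.

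**Figure D5:**
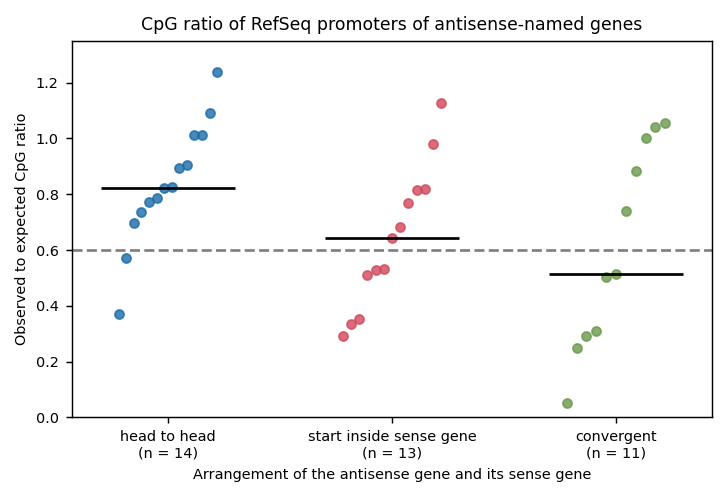
Observed to expected CpG ratio of the RefSeq promoter window of antisense-named genes by arrangement, 1 point per gene, with the median as a bar and 0.6 as a dashed line. Of the head-to-head genes 12 of 14 lie at or above 0.6, against 7 of 13 with the start inside the sense gene and 5 of 11 convergent genes, and the lowest point of all is *SLFNL1-AS1* at 0.0521.

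The listed genes were set against lists of antisense gene symbols, some of which GENCODE does not use. Of 11 symbols of the HOX clusters, which pattern the body axis, 0 were listed. Of the 10 that are GENCODE names, 0 had a row under another symbol. Of 23 symbols of abundant or much studied antisense genes, 5 were listed with a median mean of 293, namely *LRRC75A-AS1*, *OIP5-AS1*, *EPB41L4A-AS1*, *TP73-AS1* and *FOXD2-AS1*. Of 24 symbols of antisense genes at mesenchymal, matrix and hypoxia genes only *ZEB1-AS1* was listed, and of 29 at RNA-binding and RNA-processing genes only *MBNL1-AS1*. The zinc finger genes were represented by *ZNF790-AS1* at 35.3 and *ZNF503-AS2* at 29.1. These counts depend on the symbols in the table: by Ensembl identifier, 13 of the 19 GENCODE names in the list of abundant genes had a row, 7 of 23 in the mesenchymal list and 4 of 19 in the RNA-binding list, the others under the name of a genomic clone or another symbol.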

How the data were processed

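Total RNA-seq of 6 MDA-MB-231 libraries (shCTRL, shRBMS3-B3 and shRBMS3-C3, 2 biological replicates each) was processed by the submitters, whose notes name Salmon, DESeq2 and hg38 without versions or roles. The authors deposited 1 table of knockdown against control cells. Its signal column, the authors' mean normalized count, was used with the gene symbols and identifiers. The fold change, its standard error, the statistic, the p-value and the adjusted p-value in the table are the authors' own comparison and were not used, so the count test foreseen for values per library was not run and no p is given. Depth per sample is unknown, and no interval or SD can be formed from the pooled mean.

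Genes were joined by identifier to GENCODE release 44 on GRCh38, which held 15829 of 15917. Levels per kb are the mean divided by merged exonic length. A gene was represented by its MANE Select transcript, otherwise by the canonical transcript of Ensembl. Promoters were taken from RefSeq (GRCh38.p14). Python 3.11.15 with pandas 2.3.3, numpy 2.4.6, SciPy 1.17.1 and matplotlib 3.10.9 was used, and arrangement, overlap and correlation code was tested on simulated data and recovered 60 of 60 cases.

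The genes named in detail were the 10 with the highest mean, the 8 pairs with the highest and the 8 with the lowest ratio, hosts of small RNAs, up to 3 genes of each list, and *GAS6* with its 2 antisense genes. The others were named to account for the set, of which 1 gene is not reported by name here. Members and lists were chosen with earlier results of these data known. Alternatives were other lengths, a minimum mean of 100, other start limits, a looser symbol rule and merged exons for the motif.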

Additional observations from a re-analysis of the deposited data

How the results depend on the processing

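With a minimum mean normalized count of 100 the median mean of the set moved from 80.7 to 246.7, the median level per kb from 17.8 to 40.4 and the median antisense to sense ratio from 0.176 to 0.410, since only the higher genes were kept. Dividing by the representative transcript gave a median level per kb of 41.7, since that length is shorter. It gave a median ratio of 0.291, which depends on the lengths of both genes of a pair. Counting the AUA motif in merged exons raised the share of genes with a match from 88.9% to 98.1%, since more sequence was searched. The count of genes, the share of pairs with the antisense gene lower, which lay between 75% and 86.7%, the count of head-to-head pairs and the correlation of levels were within their limits under the other alternatives. The head-to-head count was 14 with a limit of 500 bases, 24 with 2000 bases and 23 with the start of the representative transcript. Restricting promoter windows to those whose RefSeq start lies within 1000 bases of the GENCODE start, an alternative chosen after seeing the data, changed the share with a CpG ratio of at least 0.6 from 65% to 68.8%.

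In undivided means the ratio crossed 1 to 7.63 for *OIP5-AS1* and 2.54 for *GABPB1-AS1*, and to 0.985 for *A1BG-AS1*, 0.780 for *SEPSECS-AS1*, 0.730 for *ADAMTSL4-AS1*, 0.623 for *NEXN-AS1* and 0.578 for *SERTAD4-AS1*. With the representative transcript it crossed 1 to 4.78 for *ZBED3-AS1*, 3.45 for *TP73-AS1*, 2.84 for *OIP5-AS1* and 0.892 for *NEXN-AS1*. These follow from the lengths alone. Of the other ratios of single pairs under both scales, 27 stayed within 1.5 times and 50 moved further without crossing 1.

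No paired analysis was possible because the value used is 1 pooled mean per gene. For the same reason leaving out replicates, the replicate block, another normalization and other filters on counts were not run, and the correlation within arrangements was not run because none had 20 pairs.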

Other observations

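Many antisense genes stood in the table under other symbols. GENCODE release 44 names 1826 genes by the same rule, of which 290 were listed, 44 of them under an antisense symbol and 246 under another one, mostly the name of a genomic clone. The median mean normalized count of these 246 was 64.9 against 80.7 in the set described above. The highest, *FGD5-AS1*, had a mean of 1476, which is above that of *AFAP1-AS1*, and *ZFHX3-AS1*, *UGDH-AS1* and *MSC-AS1* were at 925, 881 and 827. These 4 were chosen after their values were seen, as the highest of the 246. Genes of the abundant, mesenchymal and RNA-binding lists above were also found in this way. After *FGD5-AS1*, the highest were *VIM-AS1* at 353, *THUMPD3-AS1* at 314, *PCBP1-AS1* at 277, *ATP6V0E2-AS1* at 235, *VPS9D1-AS1* at 221 and *TMPO-AS1* at 214. Lower ones included *MAPKAPK5-AS1* at 119, and not all are given here.

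The named sense gene was not always the nearest neighbour at the start of the antisense gene. *CD27-AS1* started 83 bases head to head from *TAPBPL*, with means of 64.4 and 84.8, while *CD27* was not listed. *NIFK-AS1*, convergent with *NIFK*, started 156 bases from *CLASP1*, which encodes a microtubule-binding protein and had a mean of 1356. *TTC28-AS1* started 758 bases from *PITPNB*, with a mean of 1311, and *GABPB1-AS1* also started 83 bases from another listed noncoding gene with a mean of 107.5.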
